A study of Mus musculus with 4 samples.

Results

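The costimulatory and coinhibitory surface molecules of dendritic cells (DC) were followed through 10 genes: Cd80, Cd86, Cd274, Pdcd1lg2 and Icosl of the B7 family, Cd40, Tnfsf4 and Cd70 of the TNF and TNF receptor families, and Cd83 and Cd200. Every probe set annotated to one of these symbols was taken, which gave 16 of the 22626 probe sets tested (10 of 12393 genes with a probe set of their own). Cd80 had 4 of them, and Cd86, Icosl and Cd40 had a pair each. The other 6 genes had 1 each, and 0 of the 16 probe sets were shared with another gene symbol. The mean level of 12 probe sets, of 9 genes, reached 5.525, the 40th percentile over all probe sets; the other 4, among them the only one of Cd70, are called dim here.

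The cells came from spleens of female C57BL/6 mice aged 8 to 12 weeks. One group had received 10 µg/kg TCDD, a dioxin that activates the aryl hydrocarbon receptor (AhR), in corn oil by intraperitoneal injection, and the control group DMSO in corn oil by the same route; both were killed 24 h later. Each group comprised 3 mice, whose spleens were pooled before DC were enriched by density and sorted magnetically to more than 90% purity, so a DC array is an average over pooled animals and over all DC subsets. Each group has 2 Affymetrix arrays, numbered as biological replicates, and the labels do not state whether separate mice stand behind each array, so the p-values measure only the spread between these arrays.

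TCDD replicate 1 stood apart from the other arrays on some MHC class II probe sets, which mark DC. H2-Ab1 1451721_a_at read 6.5 there against 10.3 to 11.9 in the other arrays, and H2-Aa 1452431_s_at read 7.6 against 10.8 to 11.9. The upper quartile over all probe sets was 7.2 in each DMSO array but 7.1 and 7.0 after TCDD, so the arrays do not share 1 distribution as deposited.

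A DC that presents peptide to a T cell also sets the outcome through its surface ligands. CD80 and CD86 bind CD28, which drives T cell activation, and CTLA-4, which restrains it. PD-L1 and PD-L2, the products of Cd274 and Pdcd1lg2, engage the inhibitory receptor PD-1, and ICOS ligand sustains effector and follicular helper T cells. CD40 receives the helper signal from CD40 ligand on T cells, and OX40 ligand (Tnfsf4) and CD70 prolong T cell survival and memory. CD83 is a classical marker of mature DC, and CD200 calms myeloid cells that carry its receptor.

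Most of these transcripts lay close to the control level 24 h after TCDD. Of the 16 probe sets 13 differed by at most 0.35 on the log2 scale in either direction, and 3 stood lower by 0.60 or more: 1 of the 4 probe sets of Cd80 at -1.0, Cd83 at -0.60 and Cd200 at -0.60. Most probe sets of the array lay as close: 31.1% of all differed by at least 0.35, and 12.9% by at least 0.60, in either direction. The median over the 16 probe sets was -0.05, against 0.00 over all probe sets tested. None of the differences passed the test: limma called 0 of the 16 at an adjusted p under 0.05, and it called 0 of all 22626 (0.0%), with adjusted p from 0.379 to 1.0 among the members. At an unadjusted p under 0.05 there were 3 of 16 member probe sets, against 13.1% of all.

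A cruder count asks whether the TCDD arrays both exceed, or both fall short of, the pair of DMSO arrays. This held for 7 of the 16 member probe sets, or 43.8%, against 37.4% of all probe sets tested. Higher without overlap were 4 (19.0% of all probe sets), and lower without overlap were 3 (18.4% of all). The members' shares were thus near the background. The smallest p that an exact permutation test of 2 against 2 arrays allows is 0.33, so none was run for single probe sets. Of the members, 0 were both separated and at least 2-fold higher (0.398% of all probe sets), and 1 was separated and at least 2-fold lower, Cd80 1432826_a_at (2.35% of all); without DMSO replicate 2 its difference was -0.60, short of 2-fold. Without TCDD replicate 1, which leaves a single TCDD array, 6 lay higher and 5 lower, against 25.8% and 45.3% of all probe sets.

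Cd80 encodes the B7 ligand that rises on activated antigen-presenting cells. Its brightest probe set, 1432826_a_at, read 6.2 and 7.0 in the DMSO arrays against 5.5 and 5.7 after TCDD. Both TCDD arrays lay below both DMSO arrays, and the gap of 0.8 between the DMSO arrays was wide beside the difference. The difference was -1.0 (SE 0.341, n = 2 per group), a ratio of 0.50, with a 95% interval from -2.08 to 0.08 and adjusted p = 0.401. It was -0.60 without DMSO replicate 2, the higher DMSO array, and -1.40 without DMSO replicate 1. Of all probe sets tested 3.05% differed by at least this much in either direction. Probe sets of similar DMSO level, within 0.5 of it, had a median difference of -0.05.

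The other 3 probe sets of Cd80 did not show this difference. Probe set 1451950_a_at read 5.6 and 5.5 in the DMSO arrays against 5.9 and 5.8 after TCDD, a difference of 0.30 (SE 0.0848, adjusted p = 0.379). Probe set 1454372_at read 4.5 in both DMSO arrays against 4.8 and 4.7 after TCDD, a difference of 0.25 (SE 0.0744, adjusted p = 0.379). In both, the TCDD arrays lay above the DMSO arrays without overlap, the opposite order to 1432826_a_at. By the platform's annotation 1454372_at and 1432826_a_at come from the same source cDNA, so 2 probe sets of 1 cDNA pointed in opposite directions. The last probe set, 1427717_at, read 4.5 and 4.3 in the DMSO arrays against 4.4 and 4.3 after TCDD. It and 1454372_at were dim, where a change of the transcript need not show. The 4 readings of Cd80 thus had no common direction.

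Cd86, the second ligand of CD28 and the more abundant one on resting DC, was read by 2 bright probe sets. Probe set 1420404_at read 8.5 and 9.2 in the DMSO arrays against 9.3 and 8.2 after TCDD. The highest and the lowest of these 4 values were both TCDD arrays, so the groups overlapped fully. The difference was -0.10 (SE 0.533), with a 95% interval from -1.79 to 1.59. Probe set 1449858_at read 7.9 and 8.9 in the DMSO arrays against 7.9 and 8.4 after TCDD, a difference of -0.25 (SE 0.458, 95% interval -1.70 to 1.20). The DMSO arrays were 0.7 and 1.0 apart on these probe sets, more than either difference between the groups. The 2 probe sets also disagreed on the TCDD arrays, with replicate 1 the higher on 1420404_at and replicate 2 the higher on 1449858_at. With intervals this wide, changes of 2-fold in either direction were not detectable for Cd86 with this number of arrays. Both probe sets were above 0 under quantile normalization and cyclic loess, at 0.25 and 0.20 for 1420404_at and at 0.10 and 0.02 for 1449858_at.

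Cd274, which encodes the checkpoint ligand PD-L1, read 8.0 and 8.3 in the DMSO arrays against 7.6 and 8.0 after TCDD. TCDD replicate 1 was the lowest array, and TCDD replicate 2 equalled DMSO replicate 1. The difference was -0.35 (SE 0.212, 95% interval -1.02 to 0.32, adjusted p = 0.534). Probe sets of similar level had the same median difference of -0.35, and under quantile normalization Cd274 differed by -0.03. Pdcd1lg2, which encodes PD-L2, read 6.7 and 6.9 in the DMSO arrays against 6.8 and 6.7 after TCDD. All 4 arrays lay within the DMSO range, and the difference was -0.05 (SE 0.11, 95% interval -0.40 to 0.30).

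Cd274 and Pdcd1lg2 are neighbouring protein-coding genes in the mouse genome, and their promoter windows are shown to set the pair beside each other. The windows come from RefSeq (build GRCm38.p6), and the set at hand held them for 5 of the 10 genes: Cd80, Cd274, Pdcd1lg2, Icosl and Cd200. Windows of 300 bases, 250 before and 50 after the annotated start, were searched on both strands for GCGTG, the core that AhR and its partner ARNT bind, and for the NF-kB consensus. The first 270 bases are printed 5′ to 3′, with matches in capitals. Cd274 lies at chr19:29367188-29367457 on the plus strand, with GCGTG from position -201 relative to its start, and Pdcd1lg2 at chr19:29410669-29410938 on the plus strand, with an NF-kB match, GGGGAATCCC, from position -244 that reads as a match on both strands.
Cd274: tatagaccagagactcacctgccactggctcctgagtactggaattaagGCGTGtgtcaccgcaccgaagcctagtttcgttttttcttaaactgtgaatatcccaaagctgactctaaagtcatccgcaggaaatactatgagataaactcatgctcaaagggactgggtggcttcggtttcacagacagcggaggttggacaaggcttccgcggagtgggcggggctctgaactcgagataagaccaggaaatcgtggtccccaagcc
Pdcd1lg2: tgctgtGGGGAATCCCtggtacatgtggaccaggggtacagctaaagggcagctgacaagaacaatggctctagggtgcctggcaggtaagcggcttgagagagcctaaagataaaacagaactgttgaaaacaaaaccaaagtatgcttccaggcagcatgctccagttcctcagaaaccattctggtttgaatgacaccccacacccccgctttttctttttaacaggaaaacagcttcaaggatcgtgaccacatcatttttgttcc

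The search described letters only. GCGTG was held by the windows of Cd274 and Cd200, and by 32.4% of all 32851 windows of this length. The NF-kB consensus was held by Pdcd1lg2 and Icosl, and by 8.46% of all windows. The Cd80 window held a match to neither.

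Icosl encodes the ligand of ICOS, a costimulator of effector and follicular helper T cells. On its brighter probe set, 1419212_at, it read 8.0 and 7.9 in the DMSO arrays against 7.8 and 7.9 after TCDD, all within a range of 0.2. The difference was -0.10 (SE 0.0848, 95% interval -0.37 to 0.17), an interval inside 2-fold in either direction. Its dim probe set, 1426087_at, read 5.3 and 5.0 in the DMSO arrays against 5.3 and 5.4 after TCDD, a difference of 0.20 (SE 0.143). On 1419212_at the sign turned with the scaling, to 0.17 under quantile normalization and 0.13 under cyclic loess.

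Cd40 encodes the receptor through which helper T cells license DC. Probe set 1449473_s_at read 8.6 and 8.4 in the DMSO arrays against 8.8 and 8.1 after TCDD, so that the TCDD arrays bracketed the DMSO arrays. The difference was -0.05 (SE 0.302, 95% interval -1.01 to 0.91), and it became 0.29 under quantile normalization and 0.23 under cyclic loess. Probe set 1460415_a_at read 6.3 and 6.0 in the DMSO arrays against 5.9 and 6.4 after TCDD, a difference of 0.00 (SE 0.245). The TCDD arrays bracketed the DMSO arrays here too, in the opposite order. A probe set whose name ends in _s_at can match transcripts of more than 1 gene, so the level of 1449473_s_at may not be of Cd40 alone.

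Both TNF family ligands lay slightly above the control level. Tnfsf4, which encodes OX40 ligand, read 6.4 in both DMSO arrays and 6.5 in both TCDD arrays. The groups did not overlap, yet the difference of 0.10 is a single step of the rounded values (95% interval -0.10 to 0.30). Cd70, which encodes the ligand of CD27, read 5.1 and 4.9 in the DMSO arrays against 5.2 and 5.3 after TCDD, a difference of 0.25 (SE 0.11). The Cd70 probe set was dim, and probe sets of similar level had a median difference of 0.10.

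Cd83, a maturation marker that stabilises MHC class II and CD86 on the DC surface, read 10.2 in both DMSO arrays, whereas the TCDD arrays read 9.2 (replicate 1) and 10.0 (replicate 2). Both TCDD arrays were lower, but the drop was mostly in replicate 1, at -1.0 from the DMSO mean against -0.20 in replicate 2. The difference was -0.60 (SE 0.331, 95% interval -1.65 to 0.45, adjusted p = 0.484). Without TCDD replicate 1 it was -0.20, and without TCDD replicate 2 it was -1.0. Bright probe sets in general stood lower after TCDD: those of similar DMSO level had a median difference of -0.40, and their central 80% ran from -1.15 to 0.10. By array their medians were -0.28 in TCDD replicate 1 and -0.55 in TCDD replicate 2. Cd83 thus lay below them in replicate 1 and above them in replicate 2. Under quantile normalization Cd83 differed by -0.24 and under cyclic loess by -0.30.

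Cd200, the ligand of the inhibitory receptor CD200R on myeloid cells, read 6.2 in both DMSO arrays and 5.8 and 5.4 in TCDD. Both TCDD arrays lay below both DMSO arrays, at -0.40 and -0.80 from the DMSO mean. The difference was -0.60 (SE 0.174), a ratio of 0.660, with a 95% interval from -1.15 to -0.05 and adjusted p = 0.379. Probe sets of similar level had a median difference of 0.00, and the value was -0.62 under quantile normalization and -0.66 under cyclic loess. It ranged from -0.80 to -0.40 with 1 array left out. Of all probe sets 12.9% differed by at least 0.60 in either direction. In the promoter window of Cd200, chr16:45409034-45409303 on the minus strand (build GRCm38.p6), GCGTG in capitals begins at position 3 after the annotated start; it is shown as one of the windows that hold a match. Cd80 1432826_a_at, Cd83 and Cd274 also lay lower under each of the 3 scalings tried, Cd274 by only -0.03 under quantile normalization. The Cd80 window, without a match, is not printed.
Cd200: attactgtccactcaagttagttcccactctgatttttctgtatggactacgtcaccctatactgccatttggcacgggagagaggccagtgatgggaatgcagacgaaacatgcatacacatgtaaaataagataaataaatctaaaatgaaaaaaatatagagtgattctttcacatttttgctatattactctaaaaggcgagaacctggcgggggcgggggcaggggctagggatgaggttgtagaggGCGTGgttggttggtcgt

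**Figure D1:**
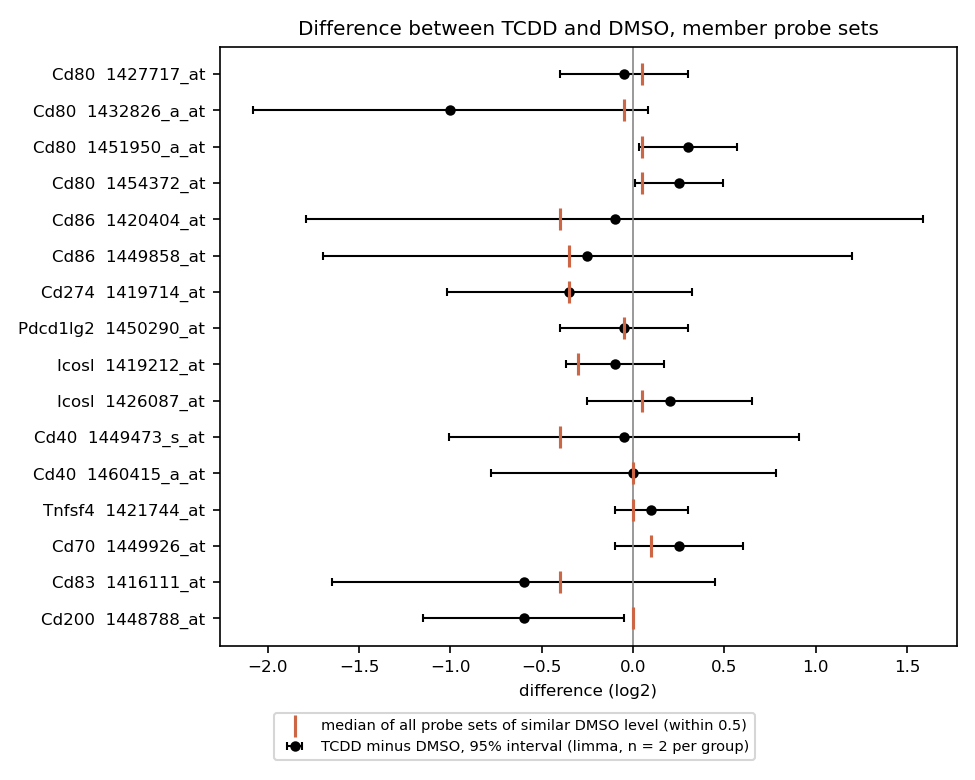
TCDD minus DMSO on the log2 scale (horizontal axis) for each member probe set, as black points with limma's 95% interval (n = 2 arrays per group); orange ticks give the median difference of all probe sets whose DMSO level lies within 0.5. The intervals of 13 of the 16 probe sets include 0, and Cd80 1432826_a_at and Cd200 lie farthest below their orange ticks.

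The intervals that did not include 0 were those of Cd200 and of Cd80 1451950_a_at and 1454372_at, and none of these passed after adjustment over all probe sets. Both probe sets of Cd86, Cd40 1449473_s_at, Icosl 1419212_at and Cd274 lay at or above the median of probe sets of similar level, which was -0.30 to -0.40. Cd83, the brightest member, lay 0.20 below its median of -0.40, and Cd40 1460415_a_at equalled its median of 0.00. Relative to that median Cd80 1432826_a_at stood at -0.95 and Cd200 at -0.60, where the medians themselves were -0.05 and 0.00.

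**Figure D2:**
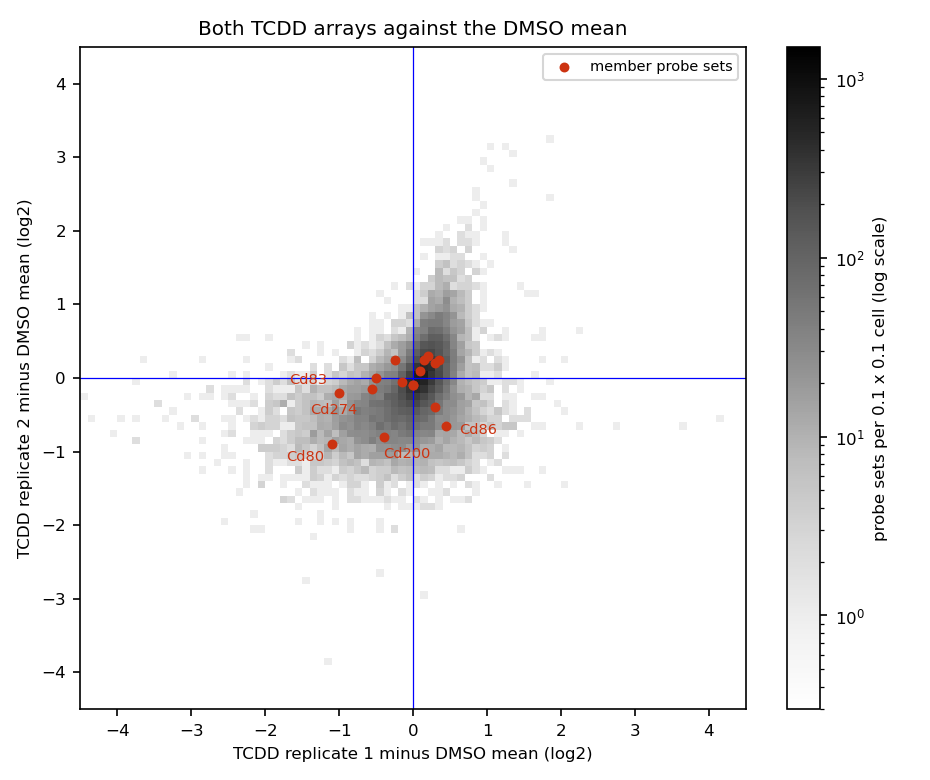
Deviation of TCDD replicate 1 (horizontal axis) and TCDD replicate 2 (vertical axis) from the DMSO mean, in log2 units; grey cells count all probe sets on a log scale, with 2 outside the plotted range, and red points are the 16 member probe sets. Cd80 1432826_a_at lies low in both arrays, at -1.10 and -0.90, Cd83 mostly in replicate 1, and 1 probe set of Cd86 is high in replicate 1 and low in replicate 2.

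The wider costimulatory network was described with 4 lists chosen by textbook role; they hold 123 probe sets of 64 genes. Limma called 0 of the 123; 21 lay higher and 24 lower without overlap, which is 17.1% and 19.5%, against 19.0% and 18.4% of all probe sets. The median difference was -0.10.

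Among the other costimulatory and adhesion ligands 17 of 23 genes were measured, by 34 probe sets with a median difference of -0.08. Without overlap 6 lay higher and 9 lower, or 17.6% and 26.5%, and 0 were called. The largest such difference was in Cd47, the "don't eat me" ligand of SIRPa. It read 9.9 and 10.6 in the DMSO arrays against 8.7 and 9.4 after TCDD on probe set 1419554_at, a difference of -1.20 (SE 0.407, adjusted p = 0.401). Its other probe sets ran from -0.90 to 0.00. Cd24a, a costimulatory glycoprotein, differed by -0.90 (SE 0.143, adjusted p = 0.349), with its other probe sets at -0.80 and -0.30. Ly9, a SLAM family receptor, differed by -0.45, and Nectin2, a ligand of CD226 and TIGIT, by 0.30 on one probe set and -0.10 on the other. At similar level the median difference was -0.40 for Cd47 and Cd24a, -0.30 for Ly9 and 0.05 for Nectin2. Cd48, a ligand of CD244 added here after its values were seen, read 9.0 and 9.3 in DMSO, 5.9 in TCDD replicate 1 and 9.2 in TCDD replicate 2, so that a single array carried its difference of -1.60. Icam1, the adhesion ligand of LFA-1, likewise looked up afterwards, differed by -0.15.

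The receptors of these ligands sit mainly on T cells, although DC express some of them. Of 16 genes 13 were measured, by 19 probe sets with a median of 0.10, and 0 were called. Without overlap 8 lay higher and 1 lower, or 42.1% and 5.26%, against 19.0% and 18.4% of all probe sets. Dim among the higher ones were the probe sets of Cd27, Ctla4 and Pdcd1 and 1428034_a_at of Tnfrsf9. Cd40lg, the T cell ligand of CD40, read 6.4 and 5.9 in the DMSO arrays against 6.6 and 6.9 after TCDD, a difference of 0.60 (SE 0.245, adjusted p = 0.441). Tnfrsf9, the receptor 4-1BB, differed by 0.50 (SE 0.0848, adjusted p = 0.349) on 1460469_at and by 0.10 and 0.15 on the others. Icos differed by -0.45 on 1 probe set and 0.00 on the other, and Tnfrsf8 (CD30) by 0.25. Of 9 T cell markers, for comparison, 2 lay higher and 1 lower without overlap, and 5 were dim. Their summed level was 9.12 and 9.05 in the DMSO arrays against 9.16 and 8.98 after TCDD. The lower one was Cd5, at -0.50 (SE 0.102, adjusted p = 0.349), and Cd3d, Cd3e and Cd3g differed by 0.10, -0.10 and 0.25.

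Genes linked to DC maturation, not all of which rise when DC are stimulated, gave 22 of 24 genes and 47 probe sets, with a median of -0.10. Without overlap 7 lay higher and 9 lower, or 14.9% and 19.1%, and 0 were called. Ciita 1421210_at, at -0.55, is among the lower ones. The list mixes genes that rise and genes that do not, so these counts do not give a direction of maturation. Marcks, which links the membrane to actin, differed by -1.35 (SE 0.323, adjusted p = 0.379), and its other 5 probe sets ran from -1.10 to -0.15. Samsn1, an adaptor that restrains lymphocyte signalling, differed by -0.75. Fscn1, the actin bundler of mature DC, differed by 0.75 (SE 0.159, adjusted p = 0.349) on 1416515_at and by -0.05 to 0.50 on 3 others. Il15ra, which presents interleukin-15 to T and NK cells, differed by 0.75 on one probe set and -0.15 on the other. At similar level the median difference was -0.40 for Marcks and Samsn1, 0.05 for Fscn1 and 0.00 for Il15ra. Ccr7, the receptor that guides mature DC to lymph nodes, looked up after the values were seen, read 8.2 and 7.8 in the DMSO arrays against 7.9 and 8.1 after TCDD. Its groups overlapped, like those of Cd40 and Cd86.

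Signalling below CD40 runs through TRAF adaptors to NF-kB, which drives Cd80, Cd83 and Cd40 among its targets. Of 19 genes 16 were measured, by 30 probe sets with a median of -0.15. Without overlap 2 lay higher and 5 lower, or 6.67% and 16.7%, and 0 were called. Traf1, an adaptor that NF-kB itself induces, read 9.5 and 9.4 in the DMSO arrays against 8.1 and 8.7 after TCDD, a difference of -1.05 (SE 0.255, adjusted p = 0.379). Nfkbia, the NF-kB inhibitor, differed by -0.90 (SE 0.294, adjusted p = 0.386) on 1448306_at. Its other 3 probe sets lay between -0.60 and -0.25, with groups that overlapped. Rela differed by -0.55, where probe sets of similar level had a median of -0.35. Tnfaip3, the A20 feedback inhibitor, differed by 0.45 (SE 0.11), and Traf5, another adaptor, by as much in the other direction, at -0.45 (SE 0.137). Traf1 and Nfkbia 1448306_at were lower by more than probe sets of similar level, whose medians were -0.45 and -0.40. The brightest Nfkbia probe set, 1420088_at, differed by -0.25, where all probe sets at DMSO levels from 10 had a median of -0.35.

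**Figure D3:**
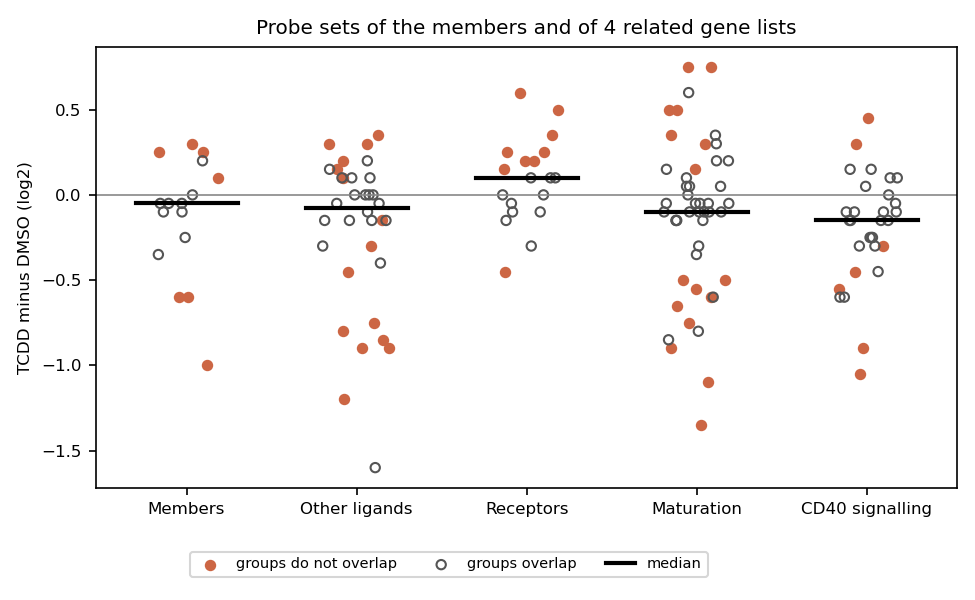
TCDD minus DMSO on the log2 scale (vertical axis) for each probe set of the members and of the 4 related lists; filled orange points mark probe sets whose groups do not overlap, open circles those that overlap, and black bars the medians. All 5 medians lie between -0.15 and 0.10, and each list holds points on both sides of 0.

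The markers of DC differed in level in the sorted cells. Xcr1 was dim, at 5.2 to 5.5 over the arrays, Clec10a read 5.8 to 6.7, and Clec9a was not measured. Others were bright, among them Itgax (CD11c) at 9.6 and 10.1 in the DMSO arrays against 9.1 and 9.4 after TCDD. H2-Aa read 12.9 to 13.3 on its brightest probe set. On other probe sets TCDD replicate 1 was far below the rest: beside H2-Aa 1452431_s_at and H2-Ab1 1451721_a_at above, H2-Ab1 1425477_x_at read 10.5 and 8.9 in the DMSO arrays against 5.3 and 9.1 after TCDD. Cd74, the invariant chain, read 13.2 and 12.5 against 10.9 and 12.6. Of 15 measured DC markers, each read by its brightest probe set, 5 lay lower and 0 higher without overlap. Those were Itgax, H2-Ab1, Cd8a, Zbtb46 and Sirpa. Sirpa 1416985_at read 9.2 and 9.4 in the DMSO arrays against 8.1 and 8.4 after TCDD. The background for this and the next counts is 18.4% lower and 19.0% higher of all probe sets, or 24.1% and 15.8% of those not dim. All probe sets at DMSO levels of 9 to 10 had a median difference of -0.45. The summed level of the DC markers, as log2 of the summed linear values, was 15.3 and 14.9 in the DMSO arrays against 14.4 and 14.9 after TCDD. For 12 neutrophil markers the sums were 10.1 and 9.88 in DMSO, 11.7 in TCDD replicate 1 and 9.91 in TCDD replicate 2, with 3 higher and 1 lower. TCDD replicate 1 is the array in which Cd83 and Cd274 were lowest, and it also had the widest gap between the 3′ end and the middle of the Gapdh control probe sets, at 3.6 against 1.5 to 2.1 in the other arrays. For 14 macrophage markers 7 were lower and 0 higher, with sums of 13.5 and 13.7 in the DMSO arrays against 13.4 and 12.8 after TCDD. For 10 B cell markers 3 were lower and 3 higher, with sums of 10.7 and 10.6 in the DMSO arrays against 10.5 and 10.2 after TCDD. For 7 NK cell markers 1 was lower and 0 higher, with sums of 10.6 and 10.9 against 10.2 and 10.1. TCDD replicate 2, in which Cd200 was lowest, thus also had the lowest sums of the macrophage, B cell, NK cell, T cell, plasma cell and plasmacytoid DC lists. Of 5 plasmacytoid DC markers 0 were separated, and of 5 plasma cell markers 1 was lower. Of 6 erythroid markers 3 were higher and of 5 platelet markers 2 were higher, with none lower. RMA values do not reach 0, so no marker was at 0. The part of these cells and of RNA quality in the values of Cd80, Cd83, Cd274 and Cd200 was not tested, and in bulk samples fewer cells of a type and less RNA per cell cannot be told apart.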

How the data were processed

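RNA from sorted splenic DC was amplified and hybridised to 4 Affymetrix mouse arrays, 2 per group, per the labels. The deposited values are log2 values that the authors made by RMA, per the submitters' processing notes, which name the method alone. RMA corrects background, quantile-normalizes probes and summarizes them per probe set; no source used here states whether the 4 arrays were normalized together. The deposited values all lie on steps of 0.1. The tests leave out 64 Affymetrix control probe sets. Symbols came from the platform annotation.

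TCDD was compared with DMSO by limma 3.58.1 (R 4.3.3; lmFit, eBayes, two-sided) over all 22626 probe sets, with Benjamini-Hochberg adjustment and a threshold of 0.05. SEs and 95% intervals are limma's moderated ones. The prior had 1.03 degrees of freedom. The fit was tested on simulated data: it returned the sizes put in, but called fewer changes once values were rounded to steps of 0.1. The members and lists were chosen with earlier results of these data known. From each of the 4 lists up to 4 genes were named, by size of difference among probe sets not dim and without overlap; Traf5, tied for the last place in its list, is given too. Marker lists of plasmacytoid DC, plasma, T, NK, erythroid and platelet cells were also read. Alternatives were other scalings, no dim probe sets, another prior, replicate blocks, 1 value per gene and each array left out. Arrays give no counts; their number limits the precision.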

Additional observations from a re-analysis of the deposited data

Results flagged for a closer look

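The Gapdh and beta-actin control probe sets, which the comparisons do not use, showed a steeper fall of signal from the 3′ end in TCDD replicate 1 than in either DMSO array. The 3′ signal of Gapdh was above that of the middle by 3.6 and of the 5′ end by 5.4 on the log2 scale, and that of beta-actin by 4.0 and 4.4; the highest DMSO values were 2.1, 4.9, 2.1 and 4.0. In TCDD replicate 2 these gaps were 2.0, 4.7, 2.0 and 3.3, none of them above the higher DMSO array. The gaps of 2.0, 4.7 and 2.0 were above those of DMSO replicate 1, at 1.5, 4.1 and 1.9. Without TCDD replicate 1 Cd83 differed by -0.20, Cd274 by -0.15, Cd80 1432826_a_at by -0.90 and Cd200 by -0.80. In TCDD replicate 2 probe sets of similar DMSO level had medians of -0.55, -0.45, -0.15 and -0.10 for these in turn. In that array Cd83 and Cd274 thus lay above such probe sets, and Cd80 1432826_a_at and Cd200 below them. The part of this array's RNA in the member values was not tested.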

How the results depend on the processing

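Limma called 0 of the 16 member probe sets under quantile normalization, median centring, cyclic loess and removal of dim probe sets. It also called 0 of them under a trended robust prior, the replicate block and the crossed replicate block, the last chosen after seeing the data. The main limma fit had itself called 0 of all 22626, and no adjusted p on the array fell below 0.349. Array-wide calls under the alternatives are not given here, so these counts do not set the members apart from other probe sets. The labels do not state a pairing by number. The difference between replicates 1 and 2 had r = -0.189 between DMSO and TCDD across probe sets, and both the replicate block and the crossed one called 0. Probe sets higher without overlap went from 4 to 2 under median centring, cyclic loess and removal of dim probe sets. Over all probe sets the share higher went from 19.0% to 13.2%, 22.4% and 15.9% under these, so under cyclic loess it rose while the members' count fell, and the share lower went from 18.4% to 24.6% under median centring. With 1 array left out, which makes separation of the groups easier, 4 to 6 were higher and 5 to 6 lower, against 24.8% to 40.8% and 23.7% to 45.3% of all probe sets. The median over the members, -0.05, was 0.12 under quantile normalization, 0.06 under cyclic loess, -0.10 under median centring, -0.10 without dim probe sets, -0.10 with the brightest probe set per gene and -0.09 with the mean per gene. It ranged from -0.08 to 0.00 with 1 array left out.

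Small differences turned sign. Under quantile normalization Icosl 1419212_at was at 0.17, Cd86 1420404_at at 0.25 and 1449858_at at 0.10, Cd40 1449473_s_at at 0.29 and Pdcd1lg2 at 0.06. Under cyclic loess Icosl 1419212_at was at 0.13, Cd86 at 0.20 and 0.02 and Cd40 1449473_s_at at 0.23. The cause was not tested. With 1 array left out Cd86 1420404_at ranged from -0.65 to 0.45 and 1449858_at from -0.75 to 0.25, Cd40 1449473_s_at from -0.40 to 0.30, Pdcd1lg2 from -0.15 to 0.05 and Cd80 1427717_at from -0.15 to 0.05. Cd80 1432826_a_at (-1.40 to -0.60), Cd83 (-1.0 to -0.20) and Cd200 (-0.80 to -0.40) kept their sign with each array left out and under each scaling. So did Cd274 (-0.55 to -0.15) and, above 0, Tnfsf4 (0.10), Cd70 (0.15 to 0.35) and Icosl 1426087_at (0.05 to 0.35). The ranges in brackets are those with 1 array left out. Cd274 shrank to -0.03 under quantile normalization and -0.11 under cyclic loess, and Tnfsf4 was at 0.15 under quantile normalization and 0.05 under median centring. Cd80 1451950_a_at (0.25 to 0.35) and 1454372_at (0.20 to 0.30) were as steady in the direction opposite to 1432826_a_at.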
